A study of Mus musculus with 12 samples.

Results

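The genes described here encode subunits and modulators of the voltage-gated sodium channel, and were chosen by name: Scn10a, Scn4a and Scn7a, Scn2b, Scn3b and Scn4b, and Fgf12 and Fgf13. They are 8 of the 48526 genes counted in every library, and were chosen with earlier results of these data known. All 8 were present in the count tables, 6 of them reached the mean normalized count above 5 that was needed for a test in at least 1 comparison, and Scn2b and Scn3b did not in any. Counts were taken from Purkinje cells (PCs), the fast-conducting cells of the ventricular conduction system, and from ventricular myocytes (VMs), the working muscle, of adult male mice with (WT) or without (KO) Ncam-1, a cell adhesion molecule. Each genotype and cell type gave 3 libraries, 12 in 4 groups. The Ncam-1 null line was kept on C57BL/6 and crossed with Cntn2-EGFP mice kept on CD1, so that all 4 groups came from mice with the reporter. Dissociated ventricular cells were stained with 50 nM TMRM, a mitochondrial dye, for 15 min and sorted as dye-positive and GFP-positive (PCs) or dye-positive and GFP-negative (VMs). The reporter follows the regulatory region of Cntn2, itself a PC marker, so the sort itself depends on how that gene is regulated. Nothing in the sources used here ties a library to a heart, and p-values measure the spread between libraries, which may be partly technical.

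A sodium channel is built on 1 pore-forming alpha subunit. Opening of the pore carries the fast inward current that starts the cardiac action potential and sets how quickly it is conducted, which matters most in the conduction system. Beta subunits are small membrane proteins with an immunoglobulin-like domain that adjust the gating and the surface level of the alpha subunit. Fibroblast growth factor homologous factors such as FGF12 and FGF13 are not secreted and bind the intracellular tail of the channel, where they alter inactivation. Scn10a encodes the alpha subunit Nav1.8, best known from sensory neurons, Scn4a the skeletal muscle subunit Nav1.4, and Scn7a an atypical sodium channel that responds to the sodium level.

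Of the 8 genes, 4 lie on mouse chromosome 9, which also carries Ncam1. In GRCm38 coordinates these are Scn3b (chr9:40269217-40291618, + strand), Scn2b (chr9:45117782-45130070, + strand), Scn4b (chr9:45138395-45154152, + strand) and Scn10a (chr9:119608456-119719322, - strand). Scn4b is 4.35 Mb from Ncam1, Scn2b 4.37 Mb, Scn3b 9.21 Mb and Scn10a 69.8 Mb. The gap between the end of Scn2b and the start of Scn4b is 8324 bases. The start of the coding sequence is shown for this neighbouring pair because 1 of them was counted in every library and the other in almost none. In each line the start codon is in capitals and the following coding bases are in lower case, 90 in all, from the + strand. The start codon of Scn2b begins at position 45118024 and its first 70 coding bases are in that exon. The start codon of Scn4b begins at position 45139042 with 61 coding bases in that exon, and in both genes the rest of the printed bases are in the next exon.
Scn2b: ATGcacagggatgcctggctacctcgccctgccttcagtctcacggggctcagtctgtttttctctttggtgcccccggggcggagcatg
Scn4b: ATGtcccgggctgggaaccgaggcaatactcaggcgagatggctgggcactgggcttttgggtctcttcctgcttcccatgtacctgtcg
The sequences are from the GENCODE M21 transcripts of the 2 genes, with coding lengths of 645 and 684 bases. The longest run of identical bases in any pair of transcripts of the 2 genes was 15 bases, which is shorter than the 50-base reads.

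The remaining members are Scn4a (chr11:106318592-106353288), Scn7a (chr2:66673425-66784914), Fgf12 (chr16:28160098-28753068) and Fgf13 (chrX:59062145-59568071), all on the - strand. Runs of identical bases longer than a read were shared with another gene of the family by Scn10a (96 bases), Fgf13 (57) and Scn4a (54), and reads from such stretches may not be assigned to 1 gene. Scn7a, Fgf12, Scn2b, Scn3b and Scn4b shared at most 32 bases. Fgf13 also contains the antisense pseudogene Gm14890, which had up to 23 counts in a library. Whether the counting used strand is not given in the sources used here, and reads from the 2 strands of that overlap may not have been told apart.

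Between 1532393 and 6761356 counts per library fell outside the mitochondrial genome. This depth limits what can be said of weakly expressed genes, and 3 counts were taken as the floor of detection, which covers counting error only. Replicate 2 of WT PCs stood apart, in which 63.9% of the reads were not aligned (18.8% to 24.7% elsewhere), with counts on 11847 genes against 13571 to 18129. The targeted gene, Ncam1, was counted 83, 34 and 116 times in the WT PC libraries, and 0, 1 and 1 times where it was deleted. The WT VM libraries had 6, 0 and 9 counts and the KO VM libraries 0 each, so those of WT VMs carried too few counts to check their labels one by one. The 7 cardiomyocyte markers were abundant in all 12 libraries, with a summed normalized count between 170462 and 224467. Among the PC markers, Cntn2 was at 237, 451 and 533 normalized counts in WT PCs, at 38.67, 49.2 and 452 in KO PCs and at most 8.99 in any VM library. KO PC libraries 1 and 2 were thus low in the gene that drives the reporter, while KO PC library 3 was within the WT range.

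The levels of the 8 genes were first set against each other per kb of exon, since a long gene gathers more reads. Fgf13 was the highest member in every group, at 90.5 ± 5.95 normalized counts per kb in WT PCs, 79.7 ± 16.7 in KO PCs, 96.8 ± 27.6 in WT VMs and 89.6 ± 6.79 in KO VMs (SD, n = 3). Its lowest library lay above the highest library of any other member within each group. In WT VMs the next places were taken without overlap by Scn4b (35.1 ± 10.2) and Scn4a (12.2 ± 4.20), and the other 5 members were at 1.97 per kb or less. In WT PCs, by contrast, 5 members lay close together: Scn4b (18.04 ± 4.45), Scn10a (15.2 ± 5.74), Fgf12 (9.20 ± 4.70), Scn4a (9.11 ± 2.99) and Scn7a (8.81 ± 3.01). Each of these 5 overlapped with its neighbour in the order, so that their order was not resolved by 3 libraries. In KO PCs the order from the second place was Scn4a (11.7 ± 1.70), Scn7a (7.80 ± 3.43), Scn10a (6.04 ± 4.95), Scn4b (3.19 ± 0.985) and Fgf12 (3.09 ± 1.80), again with overlap between all neighbours. In KO VMs it was Scn4a (14.3 ± 2.502), Scn4b (4.40 ± 1.93) and Scn7a (1.07 ± 0.50), the first 2 without overlap with the next and Scn7a overlapping with the members near 0. Scn4b was thus above Scn4a in all WT VM libraries and below it in all KO VM libraries.

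**Figure D1:**
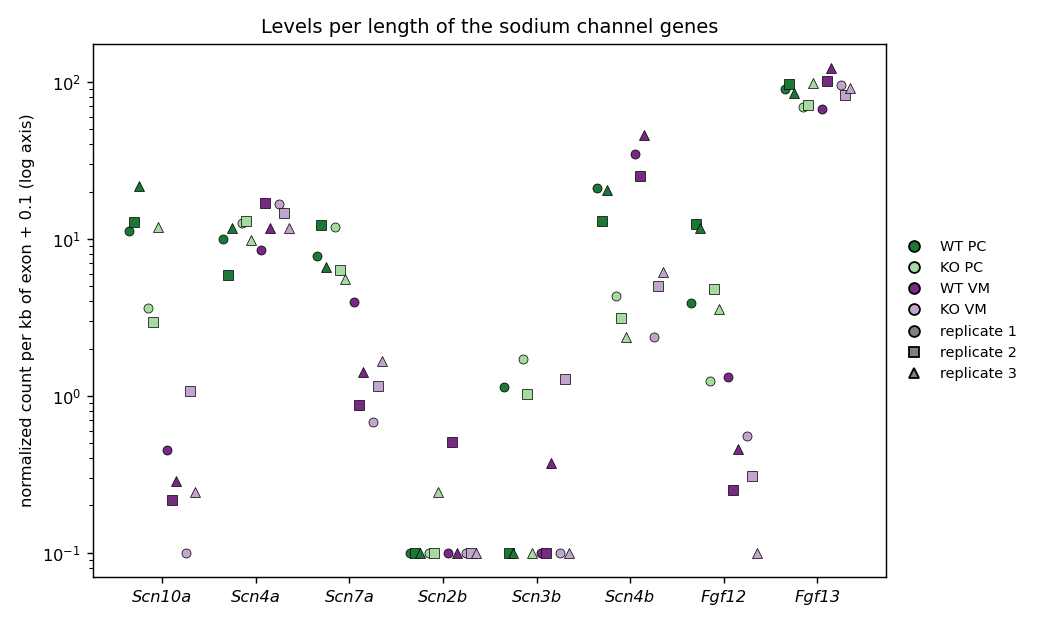
Normalized count per kb of exon, plus 0.1, on a log axis, for the 8 sodium channel genes in each of the 12 libraries. Colour gives the group and symbol shape the replicate number. Fgf13 is highest throughout, within each genotype Scn10a, Scn7a and Fgf12 are higher in every PC library than in every VM library, Scn4b drops in both KO groups, and Scn2b and Scn3b lie at or near 0.

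Scn10a, the Nav1.8 alpha subunit, was the member with the widest gap between PCs and VMs. Its normalized counts were 88.5, 101 and 173 in WT PCs and 2.81, 0.941 and 1.48 in WT VMs, the latter resting on 3, 1 and 2 reads. Every WT PC library was far above every WT VM library. Because WT VMs were at the floor, the fold is a lower bound, and Scn10a was at least 46.2-fold higher in WT PCs (adjusted p = 0.00880, edgeR with the Benjamini-Hochberg method). It was 1 of the 6 members tested to pass the adjustment, against 0.110% of the 11822 genes tested. The members that are near 0 in VMs entered the test only through their level in PCs, so the count of members itself is no support. In KO hearts, Scn10a was at 28.1, 22.7 and 93.6 in PCs and at 0, 7.70 and 1.16 in VMs. The means of 48.1 ± 39.4 and 2.95 ± 4.15 (SD, n = 3) differ by 16.3-fold (log2 fold change 4.01, standard error, SE, 0.783, adjusted p = 0.0248, edgeR). Again no PC library overlapped with a VM library. The exact permutation test gave p = 0.1 in both genotypes, which is the smallest p that 3 libraries against 3 allow.

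The call for Scn10a depended on single libraries in either genotype, although its direction did not. In WT it was lost without PC library 3 (adjusted p = 0.0518, edgeR) and without VM library 1, 2 or 3 (0.122, 0.164 and 0.219), and it held without the poorly aligned PC library 2 (4.09e-05). The size in KO also rested on single libraries, with a log2 fold change of 6.02 without VM library 2 and of 3.01 without PC library 3. In KO the call was lost without PC library 3 (adjusted p = 0.131, edgeR) and without VM library 1 (0.110) or 3 (0.105). Over both genotypes, with all 12 libraries in 1 fit, Scn10a had an adjusted p = 3.79e-04 (edgeR) and passed without any 1 of the 12 libraries, with a log2 fold change of 5.03 that became 6.06 without KO VM library 2. The genes that follow Scn10a most closely across the 12 libraries, by Pearson's r of log2(normalized count + 2) among 8100 genes, were Cntn2 (0.980), Spock2 (0.961), Sema3a (0.951), Etv1 (0.949) and Drd2 (0.945). All 5 had a higher mean in both PC groups than in both VM groups, and these values are a description without a test. Neurons are another place where Scn10a is known to be used. Of 12 neuron and Schwann cell markers, 7 had no count in any WT PC library, Sox10, Prph and Tubb3 among them. The summed normalized count of the whole list was between 10.98 and 16.6 in WT PCs and between 0.941 and 12.6 in WT VMs. The part of neuronal RNA in the level of Scn10a was not tested.

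**Figure D2:**
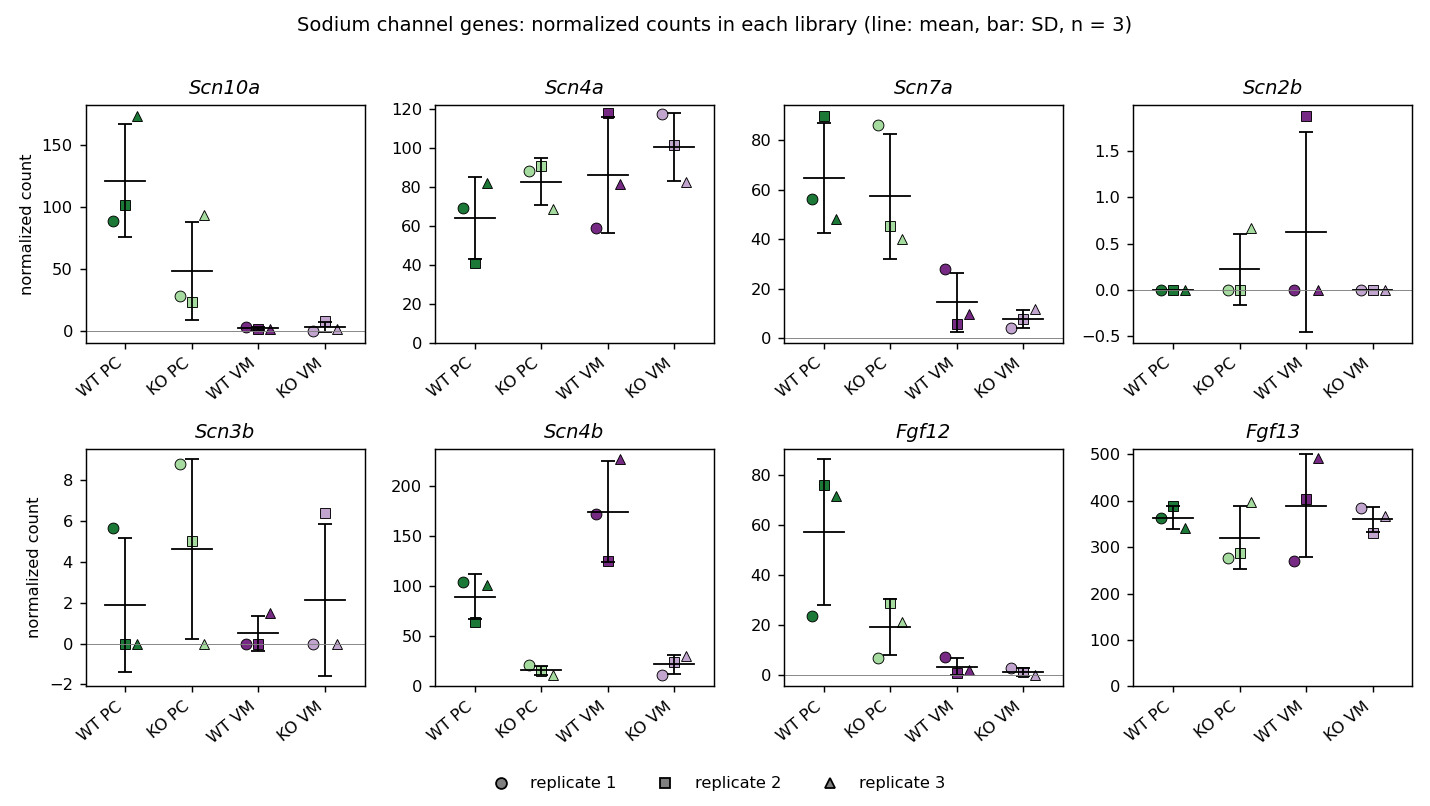
Normalized counts of each of the 8 genes in the 3 libraries of each group, on a linear axis that differs between panels. Points are libraries, the horizontal line is the mean and the bar is the SD (n = 3). Scn10a, Scn7a and Fgf12 are high in both PC groups, Scn4b is low in both KO groups, and Fgf13 and Scn4a overlap between all groups that were compared.

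Scn7a, the atypical sodium-sensing channel, was also higher in PCs. The normalized counts in WT were 56.2, 89.7 and 48.0 in PCs and 28.1, 5.65 and 9.61 in VMs, 4.47-fold apart by the means. The groups did not overlap, with VM library 1 nearest to the PC libraries, and the difference did not pass the adjustment (log2 fold change 2.11, or 3.01 without that library, SE 0.615, adjusted p = 0.6001, edgeR). In KO, Scn7a was at 86.1, 45.5 and 40.1 in PCs and at 4.24, 7.70 and 11.6 in VMs, without overlap. The 7.30-fold difference of the means passed (log2 fold change 2.79, SE 0.490, adjusted p = 0.0140, edgeR). In that comparison 2 of the 6 members tested passed, Scn10a and Scn7a, against 0.872% of 10779 genes. Scn10a was again admitted to the test only by its level in PCs, so this count is no support. The call for Scn7a was lost without KO PC library 1 (adjusted p = 0.0589, edgeR) and without KO VM library 1 (0.0734) or 2 (0.0641). Taking both genotypes, the difference was 2.47 on the log2 scale (SE 0.413, adjusted p = 0.00668, edgeR), and it passed without any 1 of the 12 libraries.

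The markers of other cell types were not evenly spread between the sorts. The summed normalized count of 8 fibroblast markers, among them Col1a1, Dcn and Pdgfra, was 741 to 1676 in WT PCs and 668 to 1069 in KO PCs, against 231 to 421 in WT VMs and 72.1 to 344 in KO VMs. None of the 8 was at 0 in all libraries of a group, and Tcf21 was at the floor in 3 of the 4 groups. Within WT PCs, WT VMs and KO PCs the library with the highest Scn7a was also the one with the highest fibroblast sum, but not within KO VMs, where Scn7a was highest in library 3 (11.6) and the fibroblast sum in library 2 (344, against 288 in library 3). The 7 leukocyte markers summed to 241 to 595 in PCs and 11.3 to 132 in VMs. The 6 endothelial markers summed to 484 to 1563 in PCs and 69.3 to 508 in VMs, and the 7 smooth muscle and pericyte markers to 988 to 2438 and 246 to 973. The match with Scn7a was not particular to fibroblasts. WT VM library 1, highest in Scn7a, was also highest in all of these sums within its group. KO PC library 1 was highest in the endothelial and smooth muscle sums but not the leukocyte sum. WT PC library 2 was highest in the leukocyte sum only, and KO VM library 3 in none of these sums. The part of these cells in the differences of Scn7a and of the other members between the sorts was not tested. In such bulk libraries fewer cells of a type and less RNA per cell cannot be told apart.

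**Figure D3:**
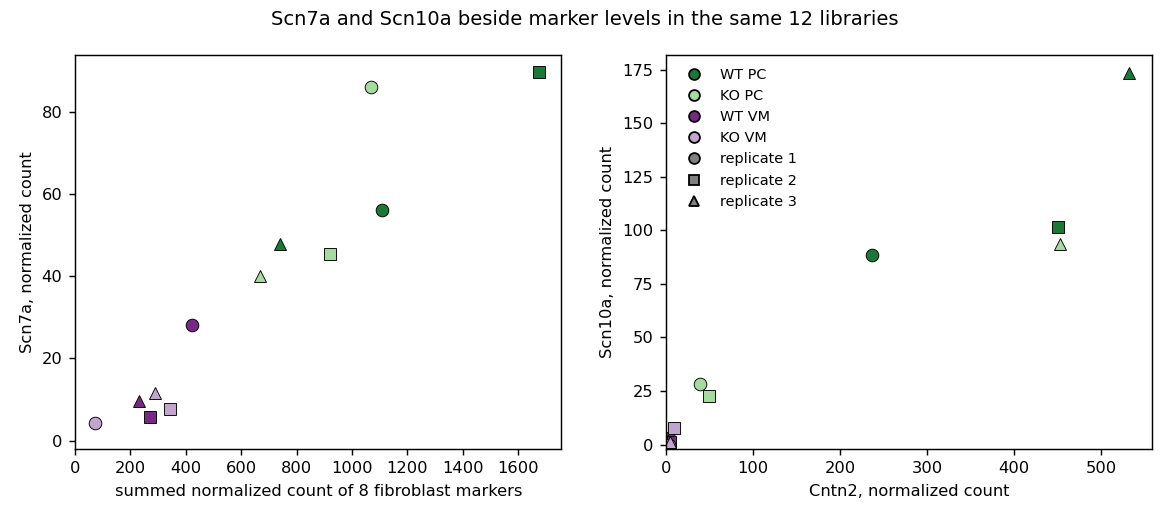
Left, normalized count of Scn7a against the summed normalized count of 8 fibroblast markers. Right, normalized count of Scn10a against that of Cntn2, each in the same 12 libraries. Colour gives the group and shape the replicate number. Scn7a is at 40.1 or more and the fibroblast sum at 668 or more in all PC libraries, and KO PC libraries 1 and 2 lie between the VM libraries and the other PC libraries in both Scn10a and Cntn2.

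Scn4a, the skeletal muscle alpha subunit, was counted in every library and did not separate any groups. In PCs it was at 69.3, 41.0 and 82.1 normalized counts in WT and at 87.9, 90.9 and 68.8 in KO. In VMs it was at 59.1, 118 and 81.4 in WT and at 117, 101 and 82.2 in KO. All ranges overlapped in all 4 comparisons. Log2 fold changes were -0.43 (SE 0.405) for WT PCs over WT VMs, -0.29 (SE 0.246) for KO PCs over KO VMs, 0.34 (SE 0.399) for KO over WT in PCs and 0.21 (SE 0.252) for KO over WT in VMs. Of 8 skeletal muscle markers, 6 or 7 were at the floor in each group, Myh1, Myh2, Myh4, Tnnt3 and Tnnc2 in all of them, and their summed normalized count was 19.5 at most.

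Among the 3 beta subunit genes only Scn4b was expressed at a level that could be tested. Scn4b encodes beta-4, a subunit linked in neurons to the resurgent sodium current. Its normalized counts were 173, 125 and 227 in WT VMs and 11.3, 24.4 and 30.1 in KO VMs, resting on 184, 133 and 307 reads and on 8, 19 and 26 reads. All KO VM libraries were below all WT VM libraries, and the highest KO library (30.1) lay far under the lowest WT library (125). The mean fell from 175 ± 51.0 to 21.9 ± 9.63 (SD, n = 3), which is 7.97-fold lower in KO (log2 fold change -2.98, SE 0.308, adjusted p = 1.55e-04, edgeR). Scn4b was 1 of the 4 members tested to pass, against 0.0373% of the 10737 genes tested. Members were chosen with earlier results of these data known, so this count is no support. Scn4b had the second smallest p-value of all genes. It passed without any 1 of the 6 libraries and under all 7 other ways of fitting, with adjusted p-values of 0.0147 at most in the latter.

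In PCs the KO libraries were also low in Scn4b, without passing the adjustment in edgeR's test. Scn4b was at 104, 64.4 and 101 in WT PCs and at 21.1, 15.2 and 11.4 in KO PCs, again without overlap. WT PC library 2, the poorly aligned one, was the lowest of the WT PC libraries, resting on 33 reads. The means of 89.9 ± 22.2 and 15.9 ± 4.91 (SD, n = 3) differ by 5.66-fold. On the log2 scale this is -2.54 (SE 0.473, adjusted p = 0.993, edgeR), the third smallest p-value of 11754 genes. In this comparison edgeR called no gene after adjustment, 378 (3.22%) had an unadjusted p under 0.05, and DESeq2 called 7, Scn4b among them. Scn4b passed the adjustment under 4 of the 7 other ways of fitting, with adjusted p-values between 6.66e-04 and 0.967, and in edgeR without WT PC library 2 (adjusted p = 0.0106). The exact permutation test gave its smallest possible p of 0.1 in both cell types. A difference in the genotype effect on Scn4b between the cell types was not detectable (difference of the log2 fold changes 0.40, SE 0.556, adjusted p = 0.999, edgeR). KO PC library 3, whose Cntn2 was within the WT range, had the lowest Scn4b of all PC libraries.

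Between cell types, Scn4b had the lower counts in PCs. In WT the PC libraries (104, 64.4 and 101) were all below the VM libraries (173, 125 and 227), 1.95-fold by the means. The log2 fold change of -0.97 (SE 0.332) did not pass the adjustment (adjusted p = 0.670, edgeR). In KO the ranges of 11.4 to 21.1 and 11.3 to 30.1 overlapped, with a log2 fold change of -0.52 (SE 0.530). Over both genotypes it was -0.74 (SE 0.276, adjusted p = 0.262, edgeR).

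**Figure D4:**
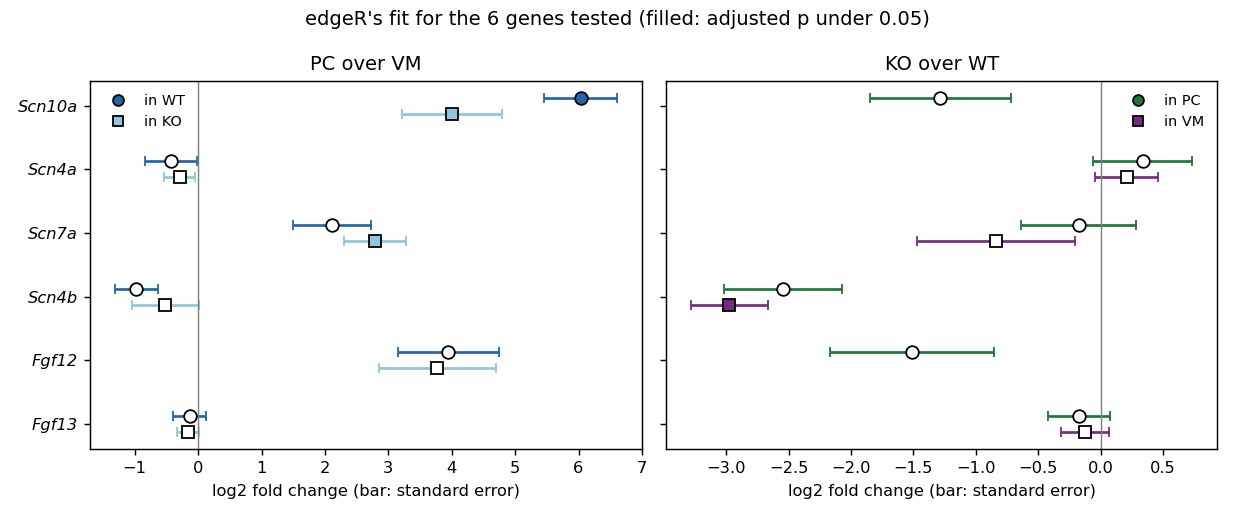
Log2 fold changes with SEs from edgeR's fit for the 6 genes that could be tested, PC over VM on the left and KO over WT on the right. Filled symbols have an adjusted p under 0.05. Scn10a in WT, Scn10a and Scn7a in KO and Scn4b in VMs are filled, and where a group is at the floor (Scn10a in WT VMs, Fgf12 in KO VMs) the fitted value depends on the prior count and is no bound.

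The surroundings of Scn4b were examined because Ncam1 is on the same chromosome. Only 4 genes passed the adjustment between KO and WT VMs, and 3 of them (Plet1os, Scn4b and Tmprss13) lie within 10 Mb of Ncam1, a window with 138 genes tested. The fourth was Nedd1 on chromosome 10. In that window 12 genes (8.70%) had an unadjusted p under 0.05, against 5.12% of all genes tested in VMs. In PCs it was 7 of 147 (4.76%), against 3.22%. Of these genes, 7 of the 12 in VMs and 6 of the 7 in PCs were lower in KO. Among all genes tested, 349 of the 550 at that threshold in VMs and 317 of the 378 in PCs were lower, which are similar shares. Plet1os went the same way as Scn4b, with a mean normalized count of 102 in WT VMs and 0.772 in KO VMs (adjusted p = 3.54e-06, edgeR). Its means were 233 in WT PCs and 0 in KO PCs. The nearest tested gene after Scn4b, at 0.165 Mb, was Tmprss13, a membrane serine protease gene, which went the opposite way, with a log2 fold change of 3.45 (SE 0.471, adjusted p = 0.00464, edgeR) in VMs and 3.78 (SE 0.747, adjusted p = 0.993, edgeR) in PCs. The nearest before it, at 0.0610 Mb, was Mpzl3, with -1.48 (SE 0.700) in VMs and -2.27 (SE 1.29) in PCs, neither of which passed. Loss of Ncam-1 and any chromosome segment that was bred along with the null allele cannot be told apart in this design. Across the 12 libraries the genes most like Scn4b by the same measure as for Scn10a were Plet1os (0.880), D3Ertd254e (0.865), Nedd1 (0.861), Wars2 (0.842) and Amd1 (0.839), which is a description without a test.

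Scn2b and Scn3b, which encode beta-2 and beta-3, could not be compared. Scn2b had 2 reads at most in any library and none in 10 of the 12 libraries. Its neighbour Scn4b, whose coding start is printed beside that of Scn2b, was counted with 8 to 307 reads in the same libraries. Scn3b had no reads in 7 of the 12 libraries, and 13, 5, 4, 2 and 5 reads in WT PC library 1, KO PC libraries 1 and 2, WT VM library 3 and KO VM library 2. A difference in either gene was not detectable at this depth.

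The modulators FGF12 and FGF13 had unlike patterns at the RNA level. Fgf12 was at 23.5, 76.1 and 71.7 in WT PCs and at 7.50, 0.941 and 2.22 in WT VMs, without overlap and 16.1-fold apart by the means. WT VM library 1 was the highest of the VM libraries, and without it the log2 fold change was 5.02. With it the difference on the log2 scale was 3.95 (SE 0.793, adjusted p = 0.218, edgeR), and the adjusted p ran from 1.41e-05 to 0.479 over the other ways of fitting and fell to 0.0165 without WT PC library 2. In KO it was at 7.03, 29.04 and 21.4 in PCs and at 2.83, 1.28 and 0 in VMs, where all libraries were at the floor. All KO PC libraries were above all KO VM libraries, and the mean was at least 4.97-fold higher (adjusted p = 0.0775, edgeR). Over both genotypes Fgf12 passed the adjustment (adjusted p = 0.00480, edgeR), also without any 1 of the 12 libraries. In that fit 3 of the 6 members tested passed, Scn10a, Scn7a and Fgf12, all higher in PCs, against 1.47% of the 11323 genes tested. Scn10a and Fgf12, near 0 in VMs, entered this fit only through their level in PCs, so the count is no support here either.

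Fgf13, the highest member, was nearly level across the groups. In PCs it was at 362, 388 and 340 in WT and at 276, 288 and 398 in KO. In VMs it was at 271, 405 and 491 in WT and at 383, 330 and 367 in KO. The ranges overlapped in all 4 comparisons. The log2 fold change was -0.13 (SE 0.262) for PCs over VMs in WT and -0.16 (SE 0.174) in KO, and -0.17 (SE 0.251) and -0.12 (SE 0.193) for KO over WT in PCs and VMs.

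Besides Scn4b, none of the members differed between genotypes after adjustment. In PCs 0 of the 6 members tested passed in edgeR (0% of all genes), while 3 had an unadjusted p under 0.05, all lower in KO, against 2.70% of all genes lower at that threshold. Besides Scn4b these were Scn10a and Fgf12. When 1 library was left out, Scn10a and Fgf12 each kept an unadjusted p under 0.05 (edgeR) in only 3 of 6 fits. Scn4b kept it in all 6, so the count of members at this threshold rests on single libraries. Scn10a had a log2 fold change of -1.29 (SE 0.565, adjusted p = 0.993, edgeR), with KO PC library 3 (93.6) inside the WT range of 88.5 to 173 and the other KO PC libraries (28.1 and 22.7) below it. Over the 6 omissions of 1 library the value ran from -2.29, without KO PC library 3, to -0.93. Fgf12 had -1.51 (SE 0.657, adjusted p = 0.993, edgeR), with 29.04 in the highest KO library above 23.5 in the lowest WT library. Scn7a overlapped in part, with 45.5 and 40.1 in KO PC libraries 2 and 3 below the WT range of 48.0 to 89.7 and 86.1 in library 1 inside it, and was at -0.18 (SE 0.459). In VMs Scn7a had -0.84 (SE 0.635), a value that rests on WT VM library 1 (28.1) and moved to 0.0235 without it. Neither Scn10a nor Fgf12 reached a level in VMs at which the genotypes could be compared.

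Among the KO PC libraries, Cntn2 and Scn10a were both highest in library 3, while Fgf12 was highest in library 2. KO PC library 1 was the lowest in both Cntn2 and Fgf12. The 2 KO PC libraries that were low in Scn10a were those low in Cntn2. Per 100 Cntn2 reads of the same library, Scn10a had 37.4, 22.5 and 32.5 reads in WT PCs and 72.7, 46.2 and 20.7 in KO PCs, which overlap. On this scale, chosen after seeing the data, the difference turned to 0.45 on the log2 scale (KO over WT, two-sided exact permutation test, p = 0.5). Cntn2 is the gene that follows Scn10a most closely over all 12 libraries (r = 0.980). That r takes in the gap between PCs and VMs, so it does not describe the genotypes within PCs. A fall shared by both genes cancels in this ratio, so its p-value does not test the level of Scn10a. Fgf12 had 9.94, 16.9 and 13.4 reads per 100 Cntn2 reads in WT PCs and 18.2, 59.0 and 4.73 in KO PCs, a difference of 0.39 (exact permutation test, p = 0.7). The summed level of 8 PC markers was 623 to 1323 in WT PCs and 397, 271 and 1065 in KO PCs. Fewer PCs in the KO sorts and less of these transcripts per PC cannot be told apart.

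The difference of the genotype effects between PCs and VMs was tested for 6 members, and none passed in edgeR or DESeq2, nor had any an unadjusted p under 0.05, against 2.90% of 11323 genes at that threshold. For Scn10a the difference of the log2 fold changes was -2.03 (SE 1.25), which moved to 0.0188 without KO VM library 2, where 6 reads of the gene were counted against 0 and 1 in the other KO VM libraries. For Fgf12 it was -0.16 (SE 2.49). Scn10a and Fgf12 had too few counts in VMs for a genotype effect to be measured there. For these genes the test cannot decide whether the effects differ. For KO over WT the median log2 fold change of the members tested was -0.73 in PCs and -0.48 in VMs, and that of all genes tested was between -0.02 and 0.02. With 6 and 4 members, the medians lie between Scn10a (-1.29) and Scn7a (-0.18) in PCs and between Scn7a (-0.84) and Fgf13 (-0.12) in VMs. Scn7a in VMs moved to 0.0235 without WT VM library 1, so these medians do not show a fall shared by the members. Without overlap between groups, 3 members were higher and 1 was lower in WT PCs than WT VMs, against 7.29% and 6.56% of all genes, and 3 were higher in KO PCs than KO VMs (8.66%), counts to which Scn10a and Fgf12 were admitted by their level in PCs. Scn4b alone was lower without overlap in KO PCs than WT PCs (4.70%) and in KO VMs than WT VMs (5.03%).

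The wider sodium channel list held 28 other genes, of which 19 or 20 could be tested, and none of them passed the adjustment in any of the 6 comparisons by edgeR. At an unadjusted p under 0.05 there were 0 of 20 for WT PCs over WT VMs (6.36% of all genes tested), 3 of 20 for KO PCs over KO VMs (9.70%) and 2 of 20 over both genotypes (11.4%). For KO over WT there were 2 of 20 in PCs (3.22%) and 2 of 19 in VMs (5.12%), and for the difference of the genotype effects 0 of 20 (2.90%). The calcium-dependent kinase gene Camk2d, whose product phosphorylates the channel, was at -0.35 for KO over WT in VMs (SE 0.130, adjusted p = 0.931, edgeR). In PCs, KO over WT was at -0.88 (SE 0.313) for Cav3, the muscle caveolin gene, and at -0.58 (SE 0.248) for Slmap, which encodes a membrane-associated protein, both with an adjusted p = 0.993 (edgeR). Between cell types, Gja1, the gap junction gene of working myocytes, was at -0.46 (SE 0.219, adjusted p = 0.798) for PCs over VMs in WT and at -0.40 (SE 0.140, adjusted p = 0.279) in KO by edgeR. Fgf11, a further homologous factor, had 5.27, 24.0 and 4.01 normalized counts in KO PCs and at most 2 reads in any KO VM library (adjusted p = 0.436, edgeR). Cav3 was at -0.54 (SE 0.234, adjusted p = 0.462, edgeR) in the same comparison. Gpd1l and Pkp2 were also among the 3 smallest p-values of a comparison, each with an unadjusted p above 0.05.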

How the data were processed

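Each file deposited by the authors held raw counts per gene for 1 library, without normalization. Per the study's methods and the submitters' processing notes, RNA was amplified (Nugen Ovation), sequenced as 50-base paired reads, aligned to mm10 with STAR 2.5.0c and counted with HTSeq 0.6.0 on annotation GRCm38.74. Amplified reads without molecular identifiers are not independent molecules. Groups followed the sample titles. Rows that name no gene were left out of tests; reads not aligned made up 18.8% to 63.9% of a library. Positions are from GENCODE M21, which lacks 468 of the identifiers. In R 4.3.3, edgeR 4.0.16 (TMM, glmQLFit, glmQLFTest) was run on genes with a mean normalized count above 5, on the 6 libraries of 2 groups or on all 12, p-values being adjusted by the Benjamini-Hochberg method across every gene in the fit, with a threshold of 0.05. Normalized counts are scaled to the geometric mean of the effective library sizes. Exact permutation tests took log2(normalized count + 2). A fold against a group with 3 or fewer counts in every library was computed against 3 counts per library. All 8 genes are named; of the 28 related genes the 3 with the smallest p-values in each comparison (some genes are not reported here), and for Scn10a and Scn4b the 5 most correlated genes with a mean above 20. Members and lists were chosen with earlier results of these data known. The steps were tested on simulated data. Alternatives were DESeq2 1.42.0, its size factors, no filter, limma 3.58.1 voom with quality weights, thinned counts, a replicate block, a fit of all 12 libraries and omission of each library.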

Additional observations from a re-analysis of the deposited data

How the results depend on the processing

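The number of genes called changed more than the members' directions. With DESeq2 it was 116 for WT PCs over WT VMs (2 members), 454 over both genotypes, 7 for KO over WT in PCs (1 member) and 10 in VMs. Without the filter on low counts it was 297 (3 members), 326 for KO PCs over KO VMs, 561, 132 (1 member), 47 and 19 for the difference of the genotype effects. With voom it was 130 (3 members) for WT PCs over WT VMs, 479 over both genotypes and 1 (1 member) for KO over WT in PCs, with 1 member left for KO PCs over KO VMs. In a single fit of all 12 libraries it was 38 (2 members), 1 (0 members) for KO PCs over KO VMs, 3 (1 member) for KO over WT in PCs and 1 in VMs. Thinned counts gave 6 for WT PCs over WT VMs. Leaving out 1 library gave 1 to 108 genes and 0 to 2 members for WT PCs over WT VMs, 19 to 150 and 0 to 2 for KO, 56 to 425 over both genotypes, 0 to 4 and 0 to 1 for KO over WT in PCs and 2 to 10 in VMs. The causes were not tested.

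Whether replicate numbers pair the libraries was not resolved. After centring, same-numbered PC and VM libraries correlated at 0.0812 to 0.206 in WT and at -0.0103 to 0.122 in KO. In WT 3 of 3 correlated best with their own number, and in KO 1 of 3. The numbers are those of the titles. In the source names WT libraries carry 1, 3 and 4, so a number shared by WT and KO may not mean the same, which touches the block between genotypes. With the replicate block 4 genes were called for WT PCs over WT VMs, 1 for KO over WT in PCs and 7 in VMs, and no member gained or lost its call.

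Several changes turned sign, not all of them small. The difference of the genotype effects for Scn4a was -0.0122 with voom and -0.12 with thinned counts. Relative to Cntn2, chosen after seeing the data, KO over WT in PCs turned to 0.45 for Scn10a and 0.39 for Fgf12. Leaving out 1 library moved PCs over VMs in WT from -0.32 to 0.0773 for Fgf13, KO over WT in PCs from -0.56 to 0.0811 for Scn7a, and KO over WT in VMs from -0.000747 to 0.51 for Scn4a, -1.23 to 0.0235 for Scn7a and -0.33 to 0.10 for Fgf13. The difference of the genotype effects ran from -3.01 to 0.0188 for Scn10a, -0.18 to 0.32 for Scn4a, -0.22 to 1.07 for Scn7a, -1.22 to 0.80 for Fgf12 and -0.27 to 0.14 for Fgf13. None of these passed the adjustment in the test reported.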
